A study of Mus musculus with 18 samples.

Results

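The 10 genes described here encode S100 proteins (S100a1, S100a6, S100a10, S100a13, S100a16 and S100b) and annexins (Anxa2, Anxa5, Anxa6 and Anxa7). They were chosen by symbol, as the rows of a table of RNA-seq read counts whose Ensembl identifiers carry those symbols, and they are 10 of the 55421 genes in that table. The symbols were chosen with earlier results of the same libraries known, so every difference given for them describes these mice and is no independent test of the choice. The RNA came from the striatum of 18 C57BL/6 mice aged 12 to 14 months: 5 WT mice, 5 zQ175 mice, 3 CK2a'(+/-) mice and 5 zQ175:CK2a'(+/-) mice. The study reports unequal shares of females and males across these genotypes, and sex was not a factor in the main fit. The zQ175 mice model Huntington's disease by carrying, on 1 of their huntingtin alleles, a knocked-in expanded CAG repeat in the full-length gene. The CK2a'(+/-) mice have lost 1 of the alleles of Csnk2a2, the gene for the catalytic subunit CK2α' of the protein kinase CK2, in the whole body rather than in a chosen cell type. The zQ175:CK2a'(+/-) mice carry both changes. Whole striatum holds neurons, glia and vessels together, so fewer cells of a type and less RNA per cell cannot be told apart.

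S100 proteins are small calcium-binding proteins with EF-hand motifs that mostly work as dimers and, on binding calcium, expose a surface that grips partner proteins. Annexins bind acidic phospholipids in the presence of calcium and so attach to the inner face of membranes, where they take part in membrane repair, vesicle traffic and membrane scaffolding. The families meet in complexes of an S100 dimer with annexin molecules, of which the best known joins S100A10 to annexin A2. In the brain S100B is best known as a protein of astrocytes and of some oligodendrocytes, and S100A10, which has lost the ability to bind calcium, as a partner that brings serotonin receptors and ion channels to the cell surface.

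The libraries held between 13612381 and 22702547 counted reads, with a median of 18005044. Levels below are CPM, the reads of a gene as a share of its library, after scaling by TMM, which corrects for differences in library composition. Of all genes, 20914 passed a filter on low counts and were tested, among them all 10 described here. Csnk2a2 stood between 14.7 and 19.9 CPM in the 8 mice with 1 allele and between 29.4 and 37.5 CPM in the 10 with both, as their labels for that gene say; the zQ175 label was not checked by this gene. The 10 markers of striatal projection neurons, Drd1, Drd2 and Ppp1r1b among them, were all detected in the striatal libraries, none at 0. Choroid plexus markers summed to between 975 and 3083 CPM in 4 mice (WT replicates 1 and 3, CK2a'(+/-) replicate 1 and zQ175:CK2a'(+/-) replicate 2) and to at most 21.6 CPM in the others, and the main results are also given without these mice.

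Read per length of exon, S100b and S100a1 were the most abundant of the 10 genes. Their mean levels over the 18 mice were 67.2 ± 11.5 and 62.8 ± 9.53 RPKM (RPKM is CPM divided by exon length in kilobases; SD), less than 1 SD apart. S100a13, whose protein takes part in the release of growth factors without a signal peptide, came next at 24.6 ± 6.30 RPKM. Anxa6, the largest annexin, with a doubled core, and Anxa5, known for its use as a stain of dying cells, stood at 19.4 ± 1.70 and 17.6 ± 3.07 RPKM, again closer than their spread. S100a16 followed at 12.7 ± 3.10 RPKM, S100a10 at 6.38 ± 3.40 RPKM, Anxa7 at 5.99 ± 0.749 RPKM and S100a6 at 4.51 ± 1.35 RPKM. S100a10 and Anxa7 were neighbours less than 1 SD apart, and their order turned with genotype: S100a10 stood at 8.49 ± 2.71 RPKM in WT, above Anxa7 at 5.73 ± 1.02 RPKM, and at 4.09 ± 1.29 RPKM in zQ175, below Anxa7 at 6.26 ± 0.577 RPKM (SD, n = 5 each). Anxa2 was the least abundant of the 10, at 0.861 ± 0.353 RPKM, below S100a10, whose protein it joins.

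The 6 S100 genes described here were also the 6 most abundant of the 17 in the table. The next, S100a11, reached 1.51 ± 0.486 RPKM, and S100a9 and S100a4, genes of neutrophils and of motile or fibroblast-like cells, 0.163 and 0.160 RPKM. Only S100a11 of the 11 other S100 genes passed the filter on low counts. Among annexins the division was not by level: Anxa3 (2.07 RPKM), which is not among the 10, had a higher mean than Anxa2 in every genotype, and Anxa9 (0.984 RPKM) and Anxa11 (0.961 RPKM), also not among them, lay less than 1 SD from Anxa2. The order of these last turned with genotype: in WT Anxa2 stood at 1.15 ± 0.424 RPKM and Anxa11 at 0.874 ± 0.206 RPKM, and in zQ175 they stood at 0.651 ± 0.258 and 1.14 ± 0.658 RPKM (SD, n = 5 each). Of the 8 other annexin genes 6 passed the filter, Anxa8 and Anxa13 being too low, and Anxa13 had no read in any library.

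**Figure D1:**
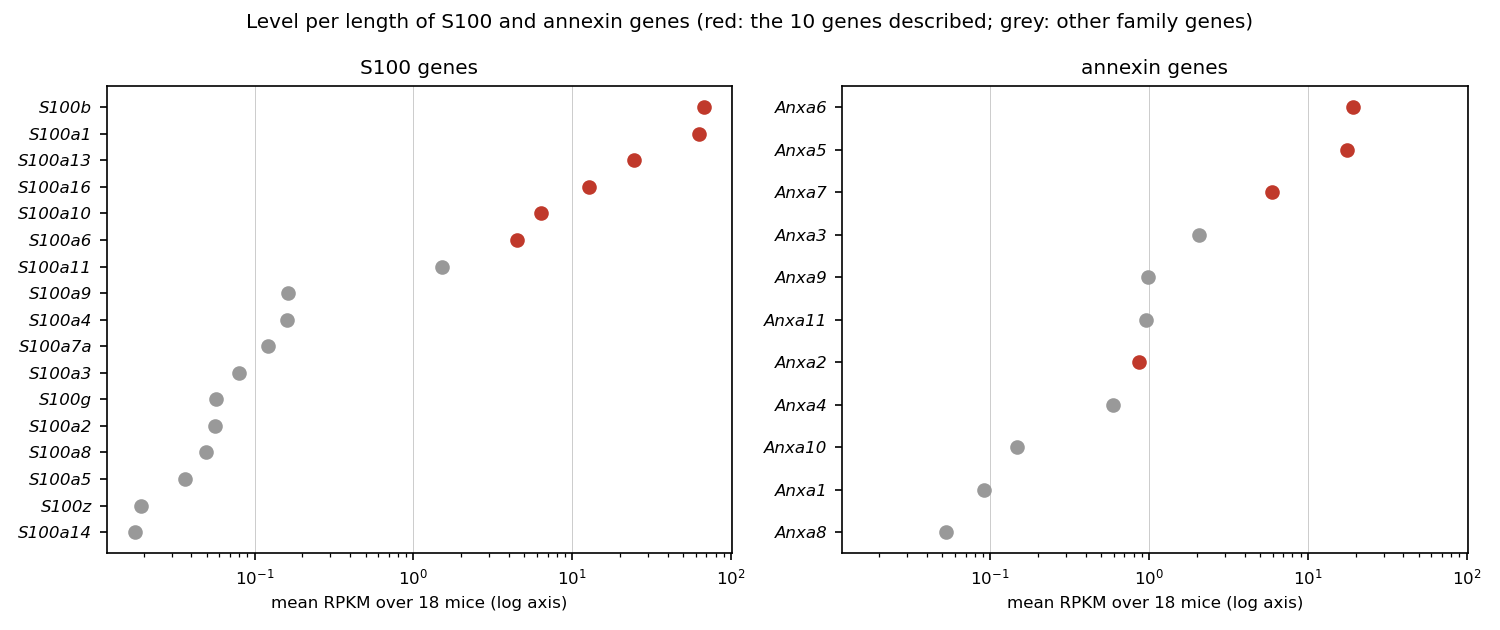
Mean level of each S100 gene (left) and annexin gene (right) in RPKM over the 18 mice, on a log axis, with the 10 genes described here in red and other genes of the families in grey. The red S100 genes occupy the top 6 places, whereas Anxa2, at 0.861, lies below Anxa3 and close to Anxa9 and Anxa11; Anxa13, listed at 0, is not drawn.

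Of the 6 S100 genes, 5 lie in the S100 cluster of mouse chromosome 3, where 14 of the 17 S100 genes in the table are found within 3.05 megabases (positions in GRCm38). S100a1 (3:90511034-90514392, minus strand) and S100a13 (3:90514435-90524581, plus strand) stand head to head, with S100a16 (3:90537254-90543151), S100a6 (3:90612882-90624181) and S100a10 (3:93555080-93564643) downstream on the plus strand. S100b lies apart on chromosome 10 (76253853-76261159). The annexins are dispersed, with Anxa5 on chromosome 3 (36448923-36475894), Anxa2 on 9 (69453620-69491795), Anxa6 on 11 (54979108-55033445) and Anxa7 on 14 (20455260-20480133). Between the annotated starts of S100a1 and S100a13 there are 42 bases. They are printed because this pair is the closest of the 10 genes on the chromosome and its levels are compared further on, and the capitals mark the single CG dinucleotide in the stretch (GRCm38.p6, from the RefSeq promoter table, plus strand, chr3:90514393-90514434).
S100a1 to S100a13: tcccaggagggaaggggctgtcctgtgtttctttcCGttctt
The stretch has a GC content of 54.8%. Its limits come from the gene spans of the deposited table, and the RefSeq promoter table places the start of S100a1 further inside that gene's span.

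In zQ175 mice, S100a10 and S100a16 were lower than in WT mice, and the other 4 S100 genes had lower means without passing the test. The question of this comparison was what the huntingtin knock-in alone does to the genes. Of the 10 genes 2 passed an adjusted p of 0.1, both lower, where 1.1% of all tested genes passed and 0.712% passed as lower. The median log2 fold change of the 10 was -0.43, and that of all tested genes was 0.00. All 6 S100 genes were below 0, as were 49.4% of all genes. Unadjusted p was under 0.05 for 5 of the 10 genes, against 13.9% of all, and the groups of 0 of the 10 genes were free of overlap in CPM, against 2.44% of all.

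S100a10 showed the largest difference. In WT mice it stood at 11.3, 9.89, 15.4, 7.51 and 7.41 CPM in replicates 1 to 5, and in zQ175 mice at 3.89, 7.65, 4.43, 3.89 and 4.95 CPM. The groups overlapped through zQ175 replicate 2 alone, which lay just above WT replicates 4 and 5. The means were 4.96 ± 1.56 CPM (SD, n = 5) in zQ175 and 10.3 ± 3.28 CPM (SD, n = 5) in WT. S100a10 was thus 2.07-fold lower in zQ175 (log2 fold change -1.05, SE 0.242, edgeR quasi-likelihood adjusted p = 0.0613). The call was kept in 17 of 27 alternatives, DESeq2 among them (adjusted p = 0.0053). The 27 include leaving out each mouse of the genotypes not compared. Those mice enter this comparison only through scaling and the shared spread, and the call was kept without each of them. The call was lost on leaving out WT replicate 1 (adjusted p = 0.147), WT replicate 3 (log2 fold change -0.86, adjusted p = 0.19) or any of zQ175 replicates 1, 3, 4 and 5 (adjusted p between 0.102 and 0.123), and on fitting only the compared groups (adjusted p = 0.153), with the direction kept. Fitting the replicate number as a block also lost it (log2 fold change -1.04, adjusted p = 0.104). Without the 4 mice rich in choroid plexus RNA, which leaves 3 WT mice, the log2 fold change was -0.74 (SE 0.218) and did not pass (adjusted p = 0.496).

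S100a16, whose protein is a widely expressed S100 with a weakened calcium site, moved over a narrower range. Its levels were 19.2, 16.3, 25.8, 27.4 and 31.2 CPM in WT replicates 1 to 5 and 14.2, 13.3, 13.7, 19.3 and 15.2 CPM in zQ175 replicates 1 to 5. WT replicates 1 and 2 were the lowest of their group, and zQ175 replicate 4 reached above both. The mean fell from 24.0 ± 6.09 to 15.1 ± 2.43 CPM (SD, n = 5 each), which is 1.59-fold lower (log2 fold change -0.67, SE 0.155, edgeR quasi-likelihood adjusted p = 0.0634). This call was kept in 16 of the same 27 alternatives, with an adjusted p of 0.00706 in DESeq2. Those that left out a mouse of a genotype not compared were again all among the kept. It was lost on leaving out WT replicates 1, 3, 4 or 5 or zQ175 replicates 1, 2, 3 or 5, with adjusted p between 0.103 and 0.167 and log2 fold changes between -0.75 and -0.55. With only the compared groups fitted the adjusted p was 0.179, and without the 4 mice rich in choroid plexus RNA the log2 fold change was -0.72 (SE 0.183, adjusted p = 0.496).

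The remaining S100 genes had lower means in zQ175 and did not pass in edgeR. S100a1, an S100 known from muscle as a partner of the ryanodine receptor, ranged from 38.3 to 55.7 CPM (median 49.6) in WT and from 33.9 to 46.3 CPM (median 35.9) in zQ175 (log2 fold change -0.36, SE 0.114, edgeR adjusted p = 0.161). S100a13 ranged from 12.3 to 24.0 CPM in WT and from 11.3 to 17.9 CPM in zQ175 (log2 fold change -0.53, SE 0.188, edgeR adjusted p = 0.199). In both genes WT replicate 2 was the lowest WT mouse, and without it both passed, S100a1 at an adjusted p of 0.0485 and S100a13 at 0.0558. S100a1 also passed without zQ175 replicate 2, its highest zQ175 mouse (adjusted p = 0.0972), and in DESeq2 with all mice (adjusted p = 0.0852). Without zQ175 replicate 5 the adjusted p was 0.282 for S100a1 and 0.347 for S100a13, and without the mice rich in choroid plexus RNA it was 0.594 and 0.645. S100a6, often called calcyclin, stood between 5.53 and 8.78 CPM in WT and between 2.44 and 8.52 CPM in zQ175 (log2 fold change -0.50, SE 0.270, edgeR adjusted p = 0.425). Without zQ175 replicate 2, the highest zQ175 mouse, the S100a6 value was -0.81 (SE 0.254, adjusted p = 0.161). Over all alternatives the S100a6 value lay between -0.81 and -0.33 and never passed. S100b ranged from 81.1 to 129 CPM in WT and from 58.3 to 103 CPM in zQ175, and its fitted difference of -0.28 on the log2 scale had a 95% interval from -0.58 to 0.01 (edgeR adjusted p = 0.363).

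**Figure D2:**
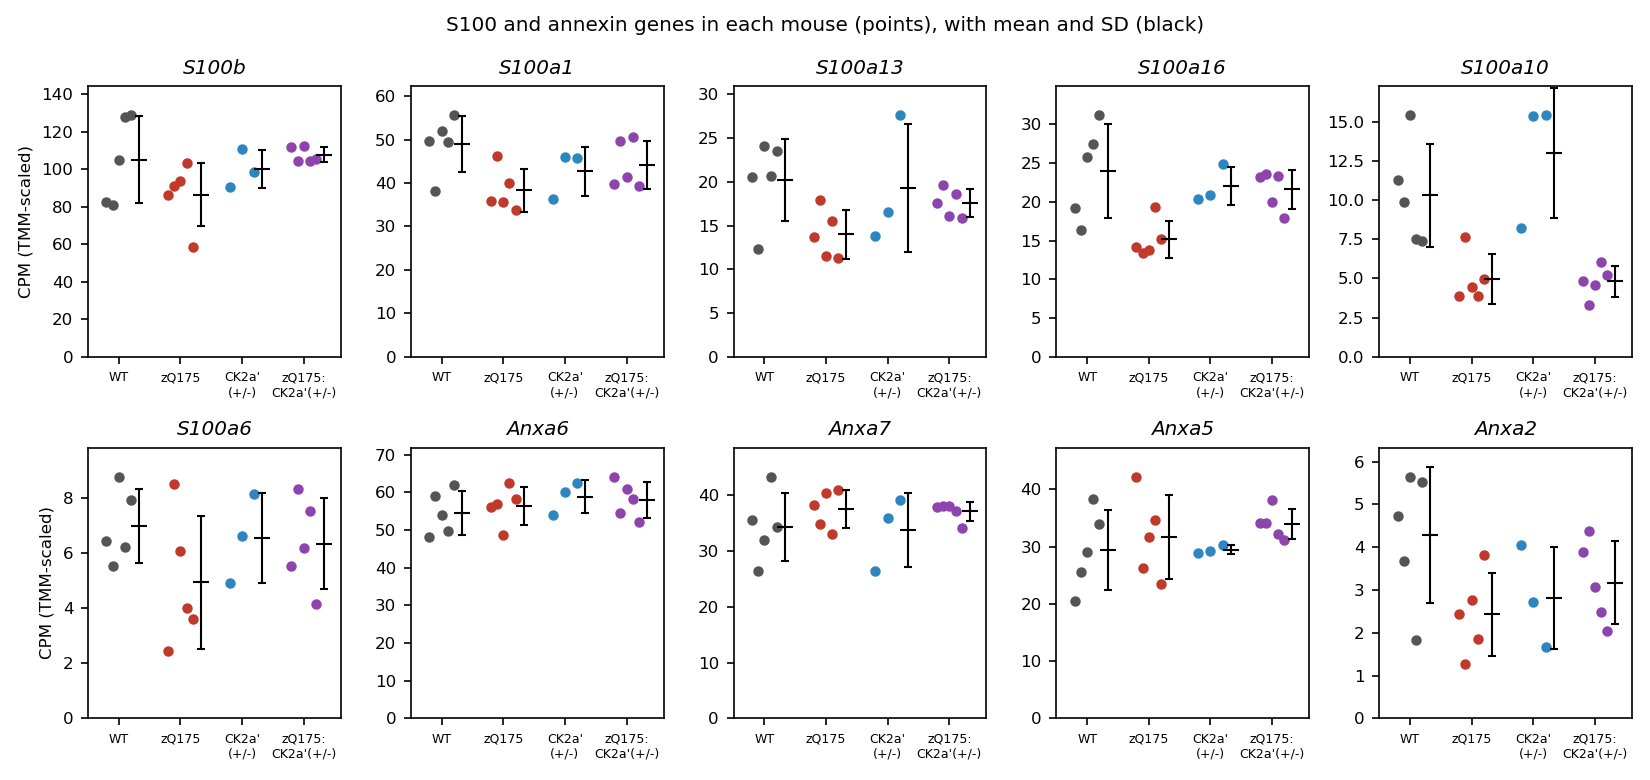
Level of each of the 10 genes in every mouse (points, CPM after TMM scaling, axes from 0), by genotype, with the mean and SD of each genotype in black (n = 5, 5, 3 and 5). S100a10 is at most 7.65 in the mice with the zQ175 allele and at least 7.41 in those without it, whereas Anxa6 and Anxa7 overlap between every pair of genotypes.

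Of the 4 annexins 1 was lower in zQ175 and 3 were close to their WT level, and none passed. Anxa5, Anxa6 and Anxa7 had log2 fold changes of 0.10 (SE 0.152), 0.05 (SE 0.0885) and 0.13 (SE 0.118) between zQ175 and WT, each about as large as its error or smaller, with edgeR adjusted p between 0.687 and 0.85. Without the 4 mice rich in choroid plexus RNA Anxa5 and Anxa6 turned to -0.04 and -0.01, so that 3 of 4 annexins were below 0. The 95% intervals ran from -0.22 to 0.43 for Anxa5, from -0.14 to 0.24 for Anxa6 and from -0.13 to 0.38 for Anxa7. Anxa2, the partner of S100A10, stood at 4.73, 3.69, 5.65, 1.82 and 5.51 CPM in WT replicates 1 to 5 and at 2.44, 1.27, 2.77, 1.85 and 3.82 CPM in zQ175 replicates 1 to 5. WT replicate 4 lay within the zQ175 range, and the log2 fold change of -0.81 (SE 0.334) did not pass (edgeR adjusted p = 0.285). At most 119 reads of Anxa2 were counted in any library, and at least 22.

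Gene length and cell type markers moved with the same comparison. The shortest of 5 equal classes of tested genes by exon length (43 to 1445 bases), which holds S100a1, S100a6, S100a10 and S100a13, had a median log2 fold change of -0.0983 between zQ175 and WT, and the longest class one of 0.0775. Among the 819 other tested genes that were no longer than S100a16 (1617 bases) and at least as abundant as S100a6 in mean log2 CPM, 82.4% were below 0 with a median of -0.23, and 3.66% passed as lower. The median of the 6 S100 genes was -0.516, with S100b, at -0.28, nearest to the short genes and S100a10 farthest from them. Markers of striatal projection neurons summed to 2343 to 4970 CPM in WT and 1158 to 2426 CPM in zQ175, with 10 of 10 markers lower and 3 passing. Mature oligodendrocyte markers summed to 5682 to 7820 CPM in WT and 3740 to 5592 CPM in zQ175, with 10 of 10 lower and 5 passing. Astrocyte markers summed to 3935 to 5729 and 3896 to 4502 CPM, with 10 of 10 lower and 0 passing (2 at an unadjusted p under 0.05 in edgeR). Microglial markers summed to 211 to 248 and 174 to 227 CPM, with 7 of 7 tested markers lower and 1 passing. Cholinergic interneuron markers summed to 45.0 to 64.6 and 18.5 to 53.4 CPM, with 4 of 4 lower, 0 passing and 3 at an unadjusted p under 0.05 in edgeR, and cortical excitatory neuron markers to 58.1 to 108 and 102 to 360 CPM, with 8 of 8 higher and 1 passing. The part of gene length and of these cell types in the S100 values was not tested.

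**Figure D3:**
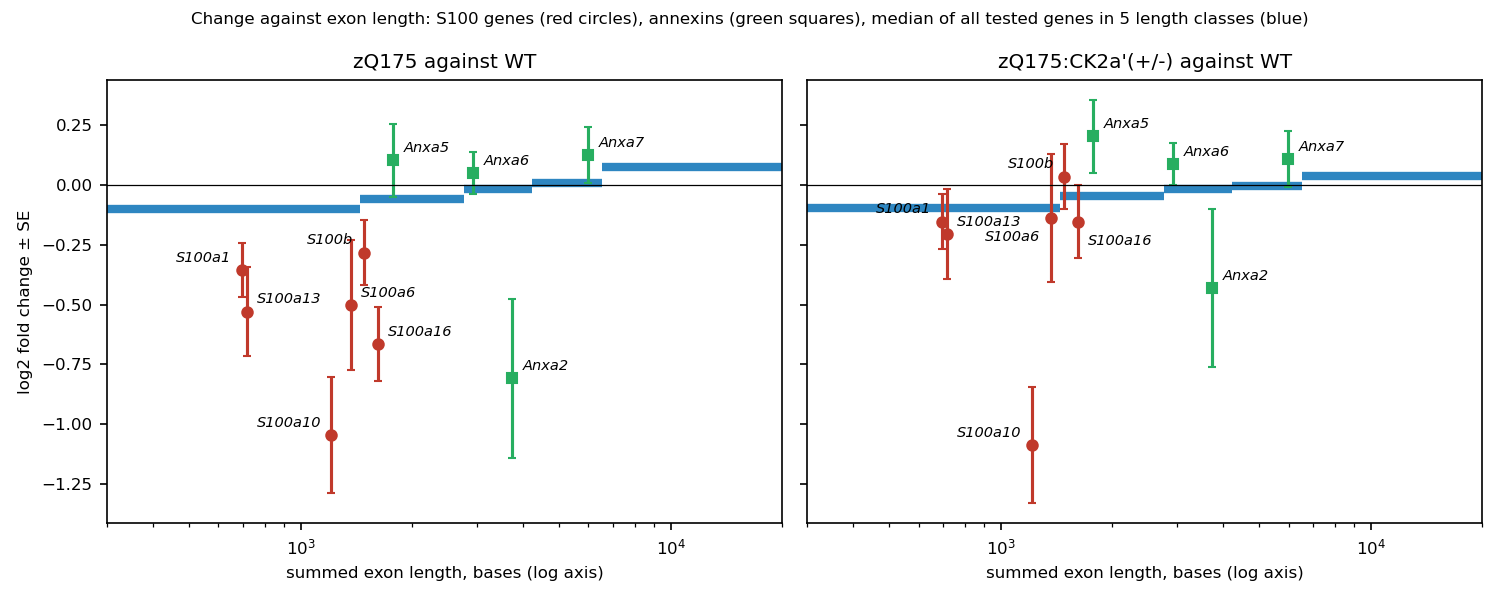
Fitted log2 fold change with its SE of the 6 S100 genes (red circles) and 4 annexins (green squares) against summed exon length on a log axis, for zQ175 against WT (left) and zQ175:CK2a'(+/-) against WT (right), with the median of all tested genes in each of 5 length classes as blue bars. On the left all 6 S100 genes lie below the blue bars, and on the right S100a10 is far below them, at -1.09.

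In zQ175:CK2a'(+/-) mice S100a10 was again low, whereas S100a16 stood near its WT level. S100a10 was at 4.84, 3.30, 4.59, 6.05 and 5.23 CPM in replicates 1 to 5 (mean 4.80 ± 1.00 CPM, SD, n = 5), and all 5 values lay below the lowest WT mouse. The log2 fold change against WT was -1.09 (SE 0.243), the 18th smallest p of 20914, yet its adjusted p was 0.204 (edgeR quasi-likelihood). In this comparison 0 of the 10 genes passed, against 0.0143% of all tested genes, and at an unadjusted p under 0.05 there was 1 of 10, against 9.13% of all. S100a10 was the single gene of the 10 whose groups did not overlap, a state that 1.84% of all tested genes shared. It passed without WT replicate 4 (adjusted p = 0.0965) and in DESeq2 (adjusted p = 0.0158), and without the 4 mice rich in choroid plexus RNA the log2 fold change was -0.67 (SE 0.230, adjusted p = 1). S100a16 stood at 23.2, 23.6, 20.0, 23.4 and 17.9 CPM (mean 21.6 ± 2.56 CPM, SD, n = 5), within the WT range (log2 fold change -0.15, 95% interval -0.48 to 0.18, edgeR adjusted p = 0.838). Its log2 fold change was -0.24 (SE 0.192) without the mice rich in choroid plexus RNA. The other 8 genes had log2 fold changes between -0.43 and 0.20 and none passed, with S100b at 0.04 (-0.05 without the mice rich in choroid plexus RNA) and Anxa2 at -0.43 (SE 0.331). In the same comparison 10 of 10 markers of striatal projection neurons were lower, 9 of 10 of astrocytes and 9 of 10 of mature oligodendrocytes, with 0 passing and 6, 4 and 4 at an unadjusted p under 0.05 in edgeR. Of the 819 short and abundant genes described above 79.4% were below 0, with a median of -0.183, and the part of either in the S100 values was not tested.

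Set against CK2a'(+/-) mice, which share the Csnk2a2 deletion, S100a10 was lower in zQ175:CK2a'(+/-) mice. The CK2a'(+/-) mice stood at 8.23, 15.4 and 15.4 CPM, with replicate 1 well under the others, and S100a10 was fitted 2.69-fold lower in zQ175:CK2a'(+/-). No value of the groups overlapped, a state shared by 8.34% of all tested genes. The log2 fold change of -1.43 (SE 0.270) passed (edgeR quasi-likelihood adjusted p = 0.0335), making 1 of the 10 genes called where 0.593% of all tested genes were called and 0.368% were called as lower; 1 of 10 also had an unadjusted p under 0.05, against 9.19% of all. The call was kept in 24 of 27 alternatives, with an adjusted p of 0.000483 in DESeq2. Among the kept were all those that left out a WT or zQ175 mouse, which are not in this comparison. The call was lost without CK2a'(+/-) replicate 2 (adjusted p = 0.198) or replicate 3 (adjusted p = 0.228) and with the replicate number as a block (adjusted p = 0.199). It held without the 4 mice rich in choroid plexus RNA (-1.57, SE 0.250, adjusted p = 0.0286). Anxa5 also did not overlap here, with 28.8 to 30.3 CPM in CK2a'(+/-) and 31.1 to 38.2 CPM in zQ175:CK2a'(+/-), but its log2 fold change of 0.21 did not pass (SE 0.176, edgeR adjusted p = 0.803). Markers of striatal projection neurons were lower in the same comparison, summing to 3496 to 5167 CPM in CK2a'(+/-) and 1993 to 2890 CPM in zQ175:CK2a'(+/-), with 10 of 10 lower and 2 passing. Astrocyte markers were lower for 8 of 10, with 0 passing and 7 at an unadjusted p under 0.05 in edgeR, and mature oligodendrocyte markers for 7 of 10, with 1 passing. The part of these cells in the S100a10 value was not tested.

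Over all 18 mice, S100a10 ranged from 3.30 to 7.65 CPM (median 4.72) in the 10 mice with the zQ175 allele and from 7.41 to 15.4 CPM (median 10.6) in the 8 without it. The sets overlapped only where zQ175 replicate 2 exceeded WT replicates 4 and 5. Complete separation of the 10 from the 8 was seen in 0.153% of tested genes and in none of the 10 genes described here.

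**Figure D4:**
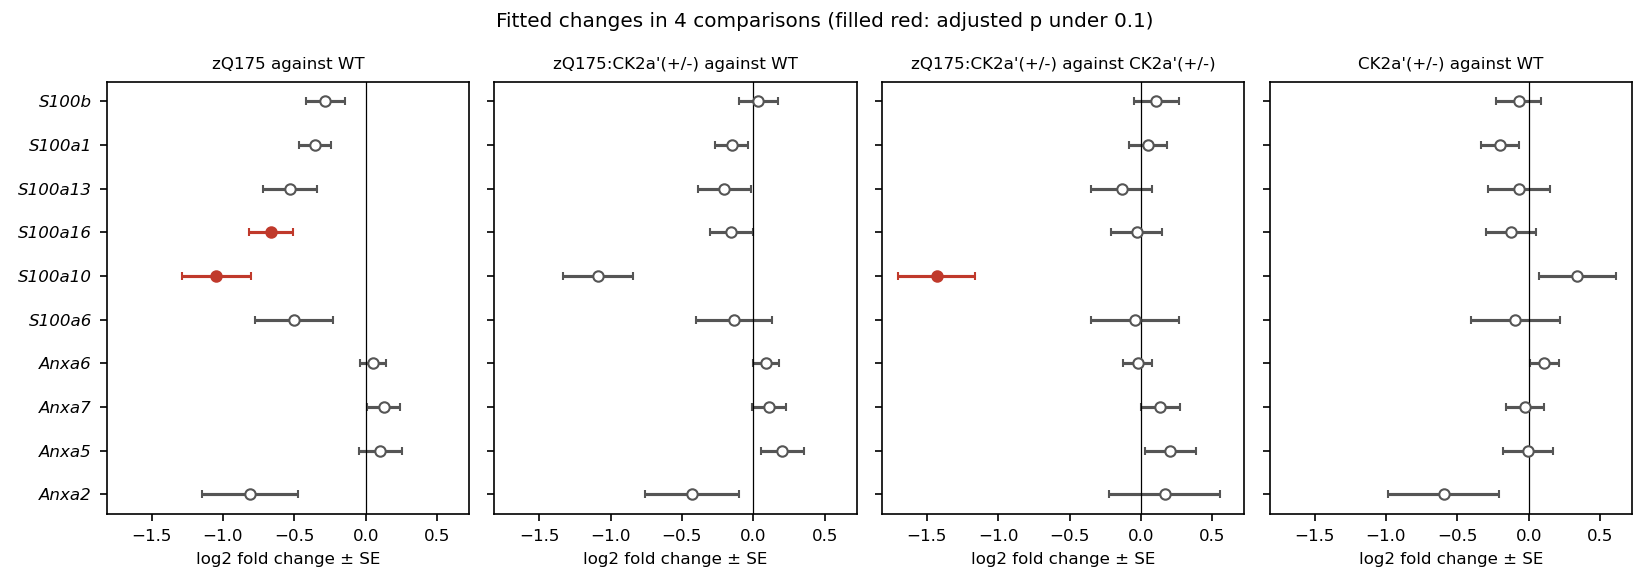
Fitted log2 fold change with its SE for the 10 genes in 4 comparisons on 1 shared axis, with genes that passed an adjusted p of 0.1 filled in red. S100a10 and S100a16 are filled in zQ175 against WT (-1.05 and -0.67) and S100a10 alone in zQ175:CK2a'(+/-) against CK2a'(+/-) (-1.43).

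Loss of 1 Csnk2a2 allele in the presence of the zQ175 allele was compared directly between zQ175 and zQ175:CK2a'(+/-) mice, and 0 of the 10 genes passed in edgeR, against 0.0143% of all tested genes. Unadjusted, 2 of 10 had p under 0.05, against 6.27% of all, and none of the 10 passed in DESeq2 either. S100a16 was lower in zQ175, at 15.1 ± 2.43 CPM against 21.6 ± 2.56 CPM (SD, n = 5 each), a log2 fold change of -0.51 (SE 0.155, edgeR unadjusted p = 0.00344, adjusted p = 0.562). S100b stood between 58.3 and 103 CPM in zQ175 and between 105 and 113 CPM in zQ175:CK2a'(+/-), without overlap, as did 1.14% of all tested genes. Its log2 fold change was -0.32 (SE 0.137, edgeR adjusted p = 0.738), and zQ175 replicate 5 was the lowest of all mice. That mouse also had the highest sum of cortical excitatory neuron markers, 360 CPM, and without it the log2 fold change of S100b was -0.21 (SE 0.123, edgeR adjusted p = 0.893) here and -0.17 (SE 0.123) between zQ175 and WT. Mature oligodendrocyte markers were lower in zQ175 for 10 of 10 and microglial markers for 7 of 7, with 0 passing and 5 and 4 at an unadjusted p under 0.05 in edgeR. Cholinergic interneuron markers were lower for 4 of 4, with 0 passing and 3 at an unadjusted p under 0.05 in edgeR, and cortical excitatory neuron markers higher for 8 of 8, with 0 passing and 5. The part of these cells in the S100a16 and S100b values was not tested. S100a10 differed by 0.04 on the log2 scale, with a 95% interval from -0.49 to 0.57, and its sign turned without the mice rich in choroid plexus RNA (-0.06) or without zQ175 replicate 2 (-0.17). Anxa5, Anxa6 and Anxa7 lay between -0.10 and 0.02, and Anxa2 was at -0.38 (SE 0.337), with -0.24 without the mice rich in choroid plexus RNA, -0.21 without zQ175 replicate 2 and -0.60 without zQ175 replicate 5.

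Whether the zQ175 effect differed between the Csnk2a2 genotypes was tested as an interaction, in which 0 of the 10 genes passed in edgeR and 0 in DESeq2, against 0.00478% of all tested genes in edgeR. Unadjusted, 2 of 10 had p under 0.05, against 5.39% of all. They were S100a16, at 0.64 on the log2 scale (SE 0.237, edgeR unadjusted p = 0.0138, adjusted p = 0.904), and S100a1, at 0.40 (SE 0.174, edgeR unadjusted p = 0.0302, adjusted p = 0.916). The S100a1 value was 0.22 (SE 0.208) without the 4 mice rich in choroid plexus RNA, and the S100a16 value 0.61 (SE 0.289). The interaction of S100a10 was -0.38, with a 95% interval from -1.16 to 0.40, and it was -0.83 (SE 0.338, edgeR adjusted p = 0.999) without the mice rich in choroid plexus RNA and -0.18 (SE 0.347) without zQ175 replicate 2. Short and abundant genes as a class had a median interaction of 0.133, of the same sign as the values of S100a16 and S100a1. The interaction was positive for 10 of 10 mature oligodendrocyte, 6 of 7 tested microglial and 4 of 4 cholinergic interneuron markers. It was negative for 8 of 10 astrocyte, 7 of 10 striatal projection neuron and 7 of 8 cortical excitatory neuron markers. Of all these markers 0 passed. The part of gene length and of these cells in the S100a16 and S100a1 values was not tested.

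Without the zQ175 allele, loss of 1 Csnk2a2 allele left each of the 10 genes short of the threshold. In CK2a'(+/-) against WT, 0 of 10 passed in edgeR and in DESeq2 and 0 had an unadjusted p under 0.05, where 0.0143% and 4.48% of all tested genes did so in edgeR. The groups overlapped for all 10, and 3.2% of all tested genes had groups that did not. S100a16 was at 20.4, 20.9 and 24.9 CPM, S100a1 at 36.2, 46.0 and 45.7 CPM and S100b at 90.6, 111 and 98.6 CPM in the 3 CK2a'(+/-) mice. Each of these values lay inside the WT range except that of S100a1 in replicate 1, which was below it. Anxa2 stood at 4.04, 2.71 and 1.67 CPM in the same mice, with replicate 3 below every WT mouse. The largest fitted values were those of Anxa2, at -0.60 (SE 0.388; -0.95 without CK2a'(+/-) replicate 1 and -0.34 without replicate 3), and S100a10, at 0.34 (95% interval -0.23 to 0.92). The S100a10 value rose to 0.90 (SE 0.266, edgeR adjusted p = 0.939) without the mice rich in choroid plexus RNA, which leaves 3 WT and 2 CK2a'(+/-) mice. Over all alternatives the S100a10 value lay between 0.20 and 0.90 and never passed. The 3 CK2a'(+/-) mice gave wide intervals, as for S100a6, from -0.76 to 0.57.

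Genes whose products work with these proteins gave 0 passes in any of the comparisons in edgeR. The 14 partners of S100A10 and annexin A2 had 11 tested, and in the comparison of zQ175 with WT the fitted change was positive for 5 and negative for 6, with an unadjusted p under 0.05 for 4 (13.9% of all tested genes). Htr1b, a serotonin receptor that S100A10 brings to the cell surface, stood at 52.4, 79.2, 52.0, 29.5 and 26.6 CPM in WT replicates 1 to 5 and between 24.2 and 37.8 CPM in zQ175 (log2 fold change -0.57, SE 0.215, edgeR adjusted p = 0.235). WT replicates 4 and 5, which were the lowest WT mice for S100a10, were also the lowest for Htr1b and had the lowest WT sums of striatal projection neuron markers, 2381 and 2343 CPM. The part of these cells in either gene's values was not tested. Ahnak, a giant scaffold protein that binds the complex of S100A10 and annexin A2, had equal means of 72.1 CPM in both groups (log2 fold change 0.00, SE 0.195). Ager, the receptor for advanced glycation end products that binds S100B outside the cell, was close to the limit of detection, at 0.317 CPM in zQ175 and 0.440 CPM in WT. Of the 11 receptors and partners of S100 proteins all were tested, with 6 higher and 5 lower and 3 with an unadjusted p under 0.05, again against 13.9% of all. Of the 7 receptors and partners of annexins 5 were tested, with 3 higher and 2 lower and 1 with an unadjusted p under 0.05, against the same share.

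The other members of the families did not pass in any comparison. S100a11 was at 0.652 CPM in zQ175 and 0.998 CPM in WT (log2 fold change -0.61, SE 0.381, edgeR adjusted p = 0.505), a gene with 7 to 29 reads a library. Of the 6 other annexins tested, 5 were lower in zQ175 than in WT and 0 had an unadjusted p under 0.05, and all 6 were higher in zQ175:CK2a'(+/-) than in WT, likewise with 0. Anxa3, a calcium-dependent membrane protein, stood at 6.45 CPM in zQ175 and 8.62 CPM in zQ175:CK2a'(+/-) (log2 fold change -0.42, SE 0.183, edgeR unadjusted p = 0.0324, adjusted p = 0.739). Anxa9 (-0.27, SE 0.363) and Anxa11 (0.38, SE 0.296) had opposite signs between zQ175 and WT.

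The levels of S100a1 and S100a13, the head-to-head pair around the 42 printed bases, were compared from mouse to mouse, within the mice with and without the zQ175 allele because levels differ between these sets. Each set still pooled mice with 1 and with both Csnk2a2 alleles. The permutations exchanged mice between these genotypes, so a difference between them enters the p-values. In the 10 mice with the allele their log2 CPM values had a Pearson r of 0.899 (two-sided permutation p = 0.00071 from 100000 draws, adjusted over 4 relations p = 0.00284) and a Spearman rho of 0.927 (permutation p = 0.00034, adjusted p = 0.00136). Without the 2 mice farthest from the median of S100a1, r was 0.889. In the 8 mice without the allele r was 0.799 (exact permutation p = 0.0194, adjusted p = 0.0388) but rho was 0.571 (exact permutation p = 0.151, adjusted p = 0.302), and r was 0.226 without the 2 farthest mice, so the relation there rested on those mice. S100a10 and Anxa2, whose proteins join in 1 complex, were tested in the same way, and neither set of mice gave a relation past the test. In the 10 mice with the zQ175 allele r was -0.571 (two-sided permutation p = 0.0838, adjusted p = 0.112) and rho -0.37 (permutation p = 0.296, adjusted p = 0.395). Without the 2 mice farthest from the median of S100a10, r was 0.233, so the negative value rested on those mice. In the 8 mice without the allele r was -0.137 (exact permutation p = 0.722, adjusted p = 0.722) and rho -0.19 (exact permutation p = 0.665, adjusted p = 0.665), and r was -0.0902 without the 2 farthest.

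**Figure D5:**
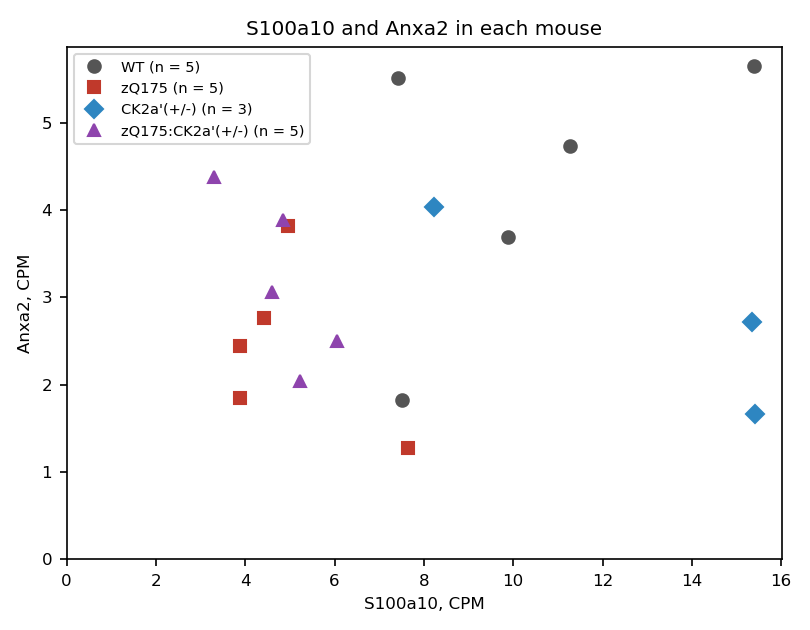
S100a10 against Anxa2 in each of the 18 mice, both in CPM after TMM scaling with axes from 0, marked by genotype. The mice with the zQ175 allele lie at 3.30 to 7.65 on the horizontal axis, and the correlation with Anxa2 is -0.571 within that set and -0.137 within the mice without the allele, neither past the test.

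As a description of pattern, the 3 tested genes with the highest Pearson correlation of log2 CPM over the 18 mice were listed for each of the 10 genes. The mice share genotype, sequencing depth and library composition, so these values carry no test. For S100a10 the nearest were Abhd11os (r = 0.943), Wnk4 (r = 0.906) and Rap1gap (r = 0.884), the last a GTPase activator at a mean of 352 CPM. For S100a13 they were Ndufb8 (r = 0.934), Gpx4 (r = 0.903) and Cox6a1 (r = 0.898), and for S100a1 Gpx4 (r = 0.883), C1qb (r = 0.881) and Ndufb11 (r = 0.873). Ndufb8, Ndufb11 and Cox6a1 encode subunits of the mitochondrial respiratory chain, and Gpx4 a glutathione peroxidase that reduces lipid peroxides. The neighbours of S100a6 were Chchd2, Rpl35 and Atp6v1g1 (r = 0.833 to 0.836), those of S100a16 Hadh, Ctsa and Cox4i2 (r = 0.872 to 0.882), and those of S100b Fam234a, Itgb2 and Tmem125 (r = 0.814 to 0.852). Anxa2 was nearest to Gas2l2 (r = 0.844), Hydin (r = 0.813) and Drc7 (r = 0.798), of which Hydin and Drc7 encode parts of motile cilia. Ependymal markers, from cells that bear such cilia, summed to 6.53 to 23.3 CPM in WT and 5.97 to 15.2 CPM in zQ175, and their part in the Anxa2 values was not tested. Anxa5 was nearest to Wnt3, Arid5b and Hsdl2 (r = 0.807 to 0.820), Anxa6 to Gm11696, Gm45760 and Gm9987 (r = 0.779 to 0.786), and Anxa7 to Syap1, Eif2d and Ddx39 (r = 0.798 to 0.801).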

How the data were processed

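Striatal RNA was extracted from flash-frozen tissue, made into stranded total RNA libraries (Takara/Clontech) and sequenced as paired reads on a NovaSeq flow cell. The deposited values are raw counts per gene, which the authors made with Trimmomatic, HISAT2 2.1.0 and Subread 1.6.2 on GRCm38; the strand setting and the annotation release are not given in the sources used here. The deposited exon length per gene served only for RPKM. Symbols were matched by Ensembl ID for 55154 of 55421 genes. Counts were fitted in edgeR 4.0.16 (R 4.3.3; TMM, filterByExpr, quasi-likelihood test, all 18 libraries in 1 fit), with Benjamini-Hochberg adjustment over 20914 genes and an adjusted p under 0.1 as the threshold; log2 CPM used a prior count of 2 and 95% intervals 14 residual degrees of freedom. The script was tested on simulated data. The labels do not say which mice shared a litter, and p-values measure the spread between these mice. The genes, marker and partner lists were chosen with earlier results of these data known. Named genes were the 10 members; of the other S100 and annexin genes those that passed (none) and the 3 most abundant per length of each family; of the partners those that passed (none) with Ahnak, Htr1b and Ager; and the 3 genes of nearest pattern. Anxa2 shares 98 exon bases with Gm16144 on the opposite strand, which had at most 2 counts. Alternatives were DESeq2 1.42.0, its size factors, no filter, only the groups compared, a replicate block, a robust fit, a threshold of 0.05, the Xist level as covariate and each mouse left out; leaving out the 4 mice rich in choroid plexus RNA was added after seeing the data.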

Additional observations from a re-analysis of the deposited data

Results flagged for a closer look

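Among the 30 groups of 5 mice examined for a value far from the others, 2 held one, and chance gives about 1 in 20. S100a10 in zQ175 replicate 2 was at 7.65 CPM, where the nearest zQ175 mouse was at 4.95 CPM, and without that mouse the log2 fold change of zQ175 against WT was -1.27 (SE 0.242, edgeR adjusted p = 0.066). Anxa7 in zQ175:CK2a'(+/-) replicate 5 was at 34.2 CPM, below the nearest at 37.1 CPM and within the range of every other genotype. In the interaction of zQ175 and CK2a'(+/-), 2 of the 10 genes had an unadjusted p under 0.05, against 5.39% of all tested genes, and neither passed after adjustment: S100a16 (0.64 on the log2 scale, SE 0.237, edgeR adjusted p = 0.904) and S100a1 (0.40, SE 0.174, edgeR adjusted p = 0.916).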

How the results depend on the processing

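Between zQ175 and WT 2 of the 10 genes passed, and the number was 0 with only the groups compared, 0 at an adjusted p of 0.05, 0 without the 4 mice rich in choroid plexus RNA, 1 with the replicate block, 3 in DESeq2, and between 0 and 4 when 1 mouse was left out. Between zQ175:CK2a'(+/-) and WT, where 0 passed, 1 passed in DESeq2, 1 without a filter on low counts, and between 0 and 1 with 1 mouse left out. Between zQ175:CK2a'(+/-) and CK2a'(+/-), where 1 passed, 0 passed with the replicate block and between 0 and 1 with 1 mouse left out. The cause of these shifts was not tested. In the other 3 comparisons 0 passed under every alternative. All 6 S100 genes were below 0 between zQ175 and WT under each of the 28 settings, the reported one included, and between 1 and 3 of the 4 annexins were, with 3 when the mice rich in choroid plexus RNA were left out. These settings overlap, since some reuse the reported fit or leave out a mouse outside the comparison, and are no independent support. In the reported fit 82.4% of the 819 short and abundant genes were below 0 as well. With the Xist level, a marker of sex, as covariate, 2 S100 genes instead of 5 were below 0 between CK2a'(+/-) and WT. Between zQ175:CK2a'(+/-) and CK2a'(+/-) 6 instead of 4 were. Of 857 recomputed values of single genes that exceeded their error, 826 stayed on the same side of the threshold with the same sign, 24 lost it, 7 gained it and 0 changed sign, but most of these were no calls to begin with. All 24 losses fell on the 3 calls, 10 of 27 recomputations for S100a10 and 11 of 27 for S100a16 between zQ175 and WT and 3 of 27 for S100a10 between zQ175:CK2a'(+/-) and CK2a'(+/-). None of the losses came from leaving out a mouse outside the comparison, which enters only through scaling and the shared spread. The kept counts include these weak alternatives. Of 753 values that did not exceed their error, 70 changed sign. The replicate numbers did not pair the mice (correlations of same-numbered mice between -0.136 and 0.12, and 1 of 18 mice nearest to its own number), so the block describes only a shared number. Low counts limit the precision of Anxa2, S100a11 and Ager, among others.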
